A study of Mus musculus with 12 samples.

Results

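The 42 genes described here encode the machinery that copies chromosomal DNA. They were taken by symbol from a list of replication factors drawn up by function, with earlier results of these data known, and all 42 were found among the 22552 gene rows of each developmental table and in the table of Tet1 loss. They fall into 8 roles, from the proteins that mark and load an origin to the enzymes that supply deoxynucleotides. Messenger RNA was measured by RNA-seq in mouse primordial germ cells, from which the gametes later form, in the strain C57BL/6. The wild-type groups are E9.5 (embryonic day 9.5) and E11.5, each with 2 libraries, and E13.5m with 3; another 3 wild-type libraries of day 13.5 are labelled without a sex. Cells of the genotype Tet1 -/-, which lack an enzyme that oxidises 5-methylcytosine, were taken at E13.5 (2 libraries) and are called Tet1-KO. A group named E13.5f stands in 1 table and on no library given here. Its values are close to the wild-type values in the Tet1-KO table (814 and 854 FPKM for Rpa2, 76.3 and 80.4 for Mcm4), so the same libraries may stand behind both. How the cells were collected, whether embryos were pooled and which Tet1 allele was used are not given in the sources used here.

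Chromosomal replication starts where the origin recognition complex (ORC), Cdc6 and Cdt1 load the Mcm helicase onto DNA in G1, and it is limited to a single round per cycle by geminin, which binds Cdt1. Once S phase starts, Mcm10 and the GINS complex help to activate the helicase, primase and polymerase alpha lay down primers, replication factor C (RFC) places the PCNA clamp, and polymerases delta and epsilon extend the strands. Many of these genes are targets of E2F transcription factors, whose activity rises as cells enter the cycle. In the mouse, germ cells multiply while they migrate and after they reach the gonad, after which female germ cells replicate a last time before meiosis and male germ cells stop dividing.

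The promoters of these genes were searched for 4 words of the E2F consensus, TTTCCCGC, TTTCGCGC, TTTGCCGC and TTTGGCGC, on both strands, in the RefSeq window of 250 bases before to 50 bases after each start (build GRCm38.p6). The words can overlap each other, since the reverse of TTTCGCGC shares bases with TTTGGCGC. A promoter was listed for 34 of the 42 genes, and 14 of those 34 (41.2%) held at least 1 word, beside 704 of all 27025 genes (2.61%). Counted by promoter, 14 of 42 windows (33.3%) held a word, beside 2.26% of all 32851 windows of the same length. A match is a description of letters and not a shown binding site. Sites are printed for genes from the origin, helicase, primase and clamp loader groups that come up in the comparisons, so that the shared letters can be seen. Sequences are written 5′ to 3′ on the strand of the gene, with the E2F words in capitals.

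Mcm5, helicase subunit, chr8:75109340-75109383, plus strand: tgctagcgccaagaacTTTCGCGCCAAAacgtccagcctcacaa
Mcm6, helicase subunit, chr1:128359788-128359831, minus strand: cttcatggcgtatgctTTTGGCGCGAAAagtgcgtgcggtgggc
Mcm6, second site, chr1:128359729-128359768, minus strand: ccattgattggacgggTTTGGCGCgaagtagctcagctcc
Mcm7, helicase subunit, chr5:138172025-138172064, minus strand: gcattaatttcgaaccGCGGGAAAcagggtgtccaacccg
Rfc3, clamp loader subunit, chr5:151651195-151651234, minus strand: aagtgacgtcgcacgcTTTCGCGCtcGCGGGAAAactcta
Cdc6, helicase loader, chr11:98907997-98908036, plus strand: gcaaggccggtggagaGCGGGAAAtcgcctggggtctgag
Orc3, origin recognition subunit, chr4:34614960-34614999, minus strand: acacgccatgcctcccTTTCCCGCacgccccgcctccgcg
Gins3, helicase activator, chr8:95633502-95633541, plus strand: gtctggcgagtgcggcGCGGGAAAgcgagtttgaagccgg
Pola1, polymerase alpha catalytic subunit, chrX:93632270-93632309, minus strand: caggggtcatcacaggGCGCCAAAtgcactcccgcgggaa

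In Mcm5 and Mcm6 a pair of words ran into each other on opposite strands, and Mcm3, Mcm6, Mcm7 and Rfc3 each held more than 1 separate site. Of the 18 sites in these 14 genes, 9 lay before the start and 9 after it, and none of the 18 began more than 170 bases before the start. The other genes with a word were Cdt1, Mcm3, Pold1, Pold3, Pole2 and Lig1. The word was absent from the window in 20 genes, including Rpa2, Pold2, Pcna, Rrm1 and Rrm2.

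**Figure D1:**
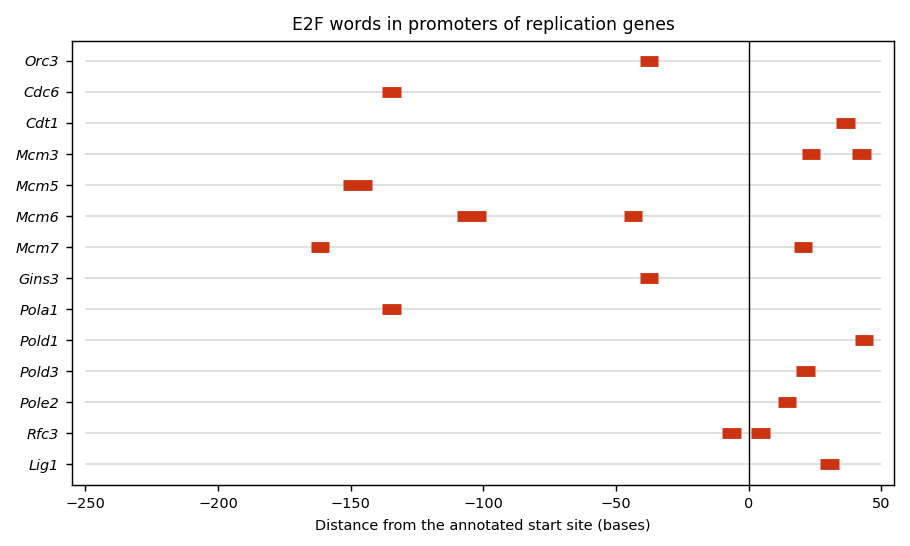
Positions of E2F words (red bars) in the promoters of the 14 replication genes that hold one, with the distance from the annotated start in bases on the x axis and the searched window drawn as a grey line. The 18 sites lie on both sides of the start, 9 before and 9 after.

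CCAAT, the word bound by the factor NF-Y, was found on either strand in 21 of the 34 genes (61.8%), beside 41.1% of all genes. Rpa2 and Pold2 are shown whole because each is called in a comparison below and holds no E2F word. Rpa2 (single-stranded DNA binding) and Pold2 (accessory subunit of polymerase delta) are printed for the 250 bases before the start, with CCAAT, or ATTGG where it lies on the other strand, in capitals. Rpa2 held 3 such words in that stretch, and Pold2 held 1 at the first of its starts.

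Rpa2, chr4:132768110-132768359, plus strand: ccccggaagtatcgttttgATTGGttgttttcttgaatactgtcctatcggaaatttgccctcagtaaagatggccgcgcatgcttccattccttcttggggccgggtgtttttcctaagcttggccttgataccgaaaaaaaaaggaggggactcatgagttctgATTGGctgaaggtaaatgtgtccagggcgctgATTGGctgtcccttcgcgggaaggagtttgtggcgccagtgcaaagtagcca
Pold2, chr11:5878257-5878506, minus strand: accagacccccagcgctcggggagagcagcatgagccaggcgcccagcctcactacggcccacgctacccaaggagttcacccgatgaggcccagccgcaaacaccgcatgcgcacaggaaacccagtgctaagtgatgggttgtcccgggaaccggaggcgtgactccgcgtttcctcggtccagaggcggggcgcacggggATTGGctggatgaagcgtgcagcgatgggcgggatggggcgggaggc

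The values are FPKM, read fragments per length of transcript and per total mapped, so levels of different genes are scaled by length. Whether this removes all effect of length on the level was not tested. Each group has 1 value, pooled by the authors over its libraries. A level therefore has no error of its own here, and the depth behind it is unknown. The standard error (SE) given with a log2 ratio is the one that the deposited test implies. No label ties a library to its own embryo or litter, and the deposited p-values then measure only how far these libraries differ, which may be a technical spread. A gene is called where its deposited Cuffdiff q-value (for Tet1-KO, FDR) is under 0.05. In pooled cells a level cannot tell fewer replicating cells from less messenger RNA in each cell. For levels across stages, values were put on a common scale through the E11.5 columns, which differ between tables only by constant factors (0.870 for the E9.5 table and 0.976 for the E13.5m table, to reach the E13.5f table). Values within a comparison are on the scale of its own table.

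The groups were checked against marker genes. Pou5f1, a pluripotency and germ cell factor, had 795 FPKM at E9.5 and 696 at E11.5, and Dazl and Ddx4, which mark gonadal germ cells, were called higher at E11.5. These are 3 of 9 germ cell markers listed, whose median log2 ratio between these groups was -0.19. None of the 9 was called lower, but 2 were lower at an unadjusted p under 0.05, beside 5.39% of all genes. The summed level of 7 blood markers was 2165 FPKM at E9.5 and 29.99 at E11.5, with 4 globins called lower and Ptprc listed at 0 in both groups. Between E11.5 and E13.5m the summed level of 5 mesenchyme markers was 117 and 30.8 FPKM, with Sparc called lower. Only 1 of these 5 had at least 1 FPKM in both groups, so the sum rests almost wholly on 1 gene. The summed level of 8 gonadal somatic markers (6 of them listed in the Tet1-KO table) was 1.85 to 2.13 FPKM at E11.5 over the 3 tables, 1.98 in E13.5f, 7.59 in E13.5m, 1.92 in the wild type and 7.10 in Tet1-KO, with Amh, a Sertoli cell hormone, called higher in E13.5m. Tet1 itself had 6.36 FPKM in the wild type and 0.218 in Tet1-KO (-4.87 ± 0.67 on the log2 scale).

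Replication genes were among the highly expressed genes in every wild-type group. Their median level on the common scale was 86.0 FPKM at E9.5, 145 at E11.5, 120 in E13.5f and 119 in E13.5m, beside medians of 5.94, 5.08, 4.83 and 4.15 over all genes above 0. The median gene of the machinery stood at the 94.1, 95.6, 93.7 and 94.3 percentile of all rows in these groups. Pole, the catalytic subunit of polymerase epsilon, was lowest in each of them, with 6.42, 8.63, 10.9 and 6.38 FPKM. The highest was Rrm2, the small subunit of ribonucleotide reductase, at E9.5 (535 FPKM), Mcm6 at E11.5 (617) and in E13.5m (653), and Rpa2 in E13.5f (814). Across the 42 genes, the Spearman correlation between the length of the longest coding transcript and the level was -0.23 at E9.5, -0.27 at E11.5, -0.39 in E13.5f and -0.27 in E13.5m.

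**Figure D2:**
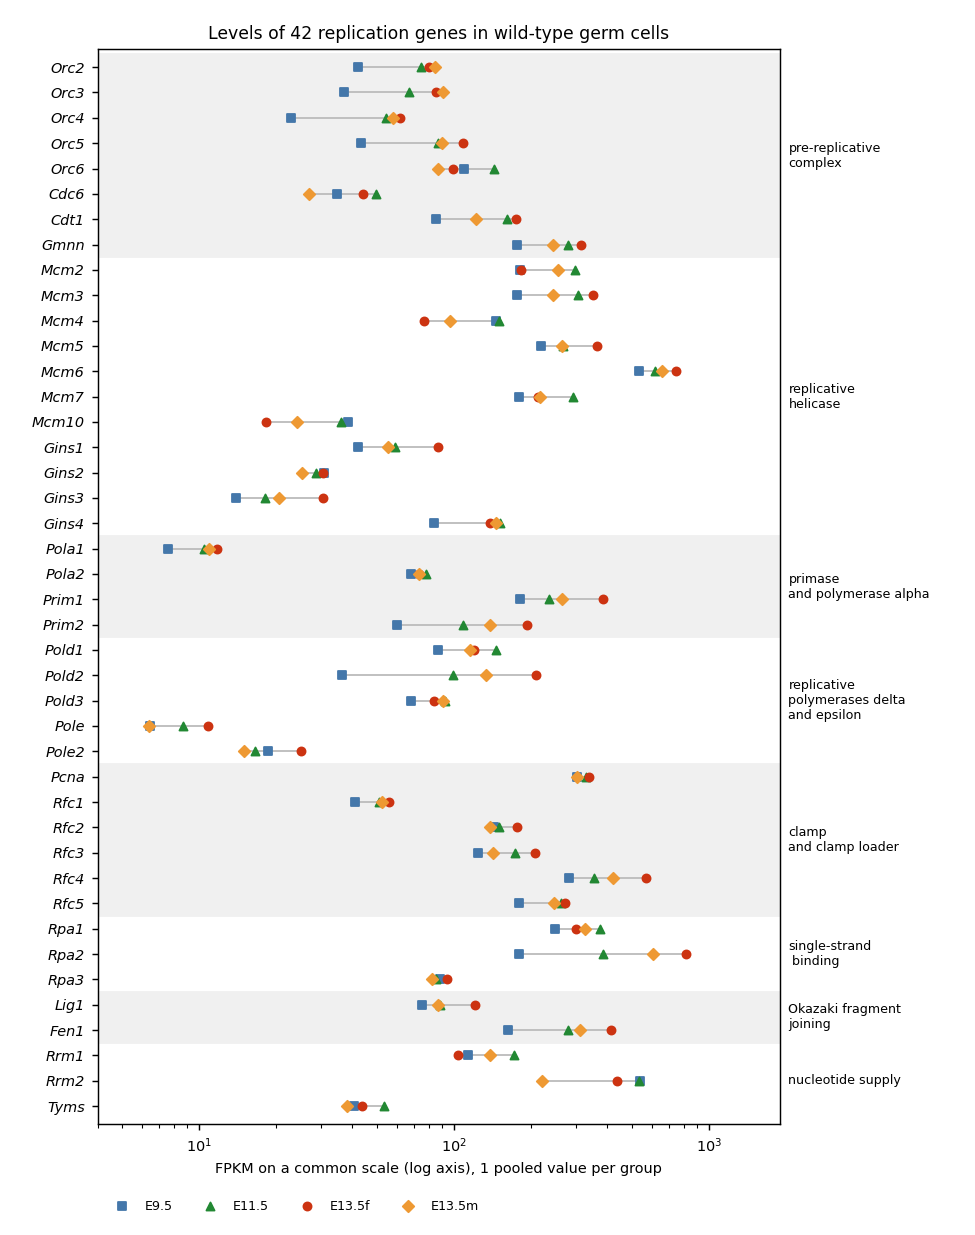
Level of each of the 42 replication genes in the 4 wild-type groups, in FPKM on a common scale (log axis), grouped by role; each marker is 1 pooled value and the grey line spans the lowest to the highest group. Pcna spans 1.12-fold and Pold2 5.77-fold.

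Over the 4 wild-type groups the highest level exceeded the lowest by 1.69-fold at the median gene. The sliding clamp gene Pcna had the smallest span, with 303, 330, 339 and 305 FPKM at E9.5, E11.5, E13.5f and E13.5m, or 1.12-fold. Pold2 had the widest, with 36.3, 98.96, 209 and 134 FPKM. The span was under 1.5-fold in 9 genes and 2-fold or more in 15, among them Orc2, Orc3, Orc4, Orc5, Cdt1, Gins3, Prim1, Prim2, Fen1 and Rrm2. The 27 members with at least 50 FPKM in all 4 groups had a median span of 1.67-fold, beside 1.64-fold over all 1924 such genes.

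The first comparison was between E9.5 and E11.5, as germ cells move into the gonad. Orc2, Orc3 and Orc4, which encode subunits of the origin recognition complex, rose, and no replication gene was called lower. These 3 were called higher among 42 tested, beside 3.71% of all 12904 tested genes called higher. The 0 called lower stand beside 1.92%, and in either direction 5.63% of all genes were called. The median log2 ratio of the 42 genes was 0.47, beside 0.32 over 9903 genes with at least 1 FPKM in both groups and 0.34 over the 2390 of these with at least 50. Of the 42 genes, 37 had a ratio above 0, beside 70.6% of all genes, and 29 had a ratio above the median of the table. At an unadjusted p under 0.05 there were 7 higher (Orc2, Orc3, Orc4, Orc5, Cdt1, Pold2 and Rpa2) and 0 lower, beside 14.4% and 5.39% of all genes.

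Among the genes that act before S phase, Orc4 (chromosome 2, 48669628 to 48804787, build mm9 as in the deposited table) had 26.4 FPKM at E9.5 and 62.1 at E11.5, a log2 ratio of 1.24 ± 0.38 (SE). Orc2 (chromosome 1, 58519614 to 58561763) had 48.4 and 85.2 FPKM, a log2 ratio of 0.82 ± 0.24. Orc3 (chromosome 4, 34497863 to 34562191) had 42.5 and 76.5 FPKM, a log2 ratio of 0.85 ± 0.11. The SE of Orc3 was the smallest of the 42 genes, whose median SE was 0.44. In the authors' deposited table the q-value was 0.0218 for Orc2, 1.11e-12 for Orc3 and 0.0276 for Orc4. The other ORC subunits among the 42 genes were not called. Orc5 had 49.7 and 99.99 FPKM (log2 ratio 1.01 ± 0.47), and Orc6 had 125 and 166 (0.40 ± 0.44). All 8 genes of this role had a ratio above 0, and also above the median of the table, with a median of 0.83. Cdt1, which brings the helicase to ORC, had 97.9 and 185 FPKM, and its inhibitor Gmnn had 203 and 321, with neither called. The level of Gmnn over that of Cdt1 was 2.07 at E9.5 and 1.73 at E11.5. Orc2 shares 29.8% of its exon bases with Nif3l1 on the opposite strand, and Orc4 shares 5.98% with a neighbour; no source used here says that strand was used in counting, so reads of these pairs cannot be told apart.

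No helicase gene was called from E9.5 to E11.5. The log2 ratios of the 11 genes of this role ran from -0.10 for Mcm10, a helicase activation factor, to 0.85 for Gins4, with a median of 0.37. Within the helicase ring Mcm3 had 203 and 352 FPKM and Mcm2 had 210 and 343, while Mcm4 had 168 and 172. For primase and polymerase alpha, the largest ratio was that of Prim2, the large primase subunit, at 0.86 ± 0.45.

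Pold2 stood just outside the call. It had 41.7 FPKM at E9.5 and 114 at E11.5, the largest log2 ratio of the 42 genes at 1.45 ± 0.49, with a q-value of 0.0541 in the authors' deposited table. Rpa2 had 207 and 443 FPKM, a log2 ratio of 1.09 ± 0.43 that was not called either. Its partners in replication protein A, the complex that coats single-stranded DNA, had 286 and 430 FPKM (Rpa1) and 102 and 97.4 (Rpa3). Rrm2 had 615 FPKM at E9.5 and 612 at E11.5. At the median SE of the members, a log2 ratio of 1.31, a 2.49-fold change, is needed to reach the largest p-value called in this table, so smaller changes were not detectable for most of these genes.

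The calls of E9.5 to E11.5 depend on the shift of the table and on the SE. Taken relative to the median of 0.32, Orc3 alone stayed called, and Orc2 and Orc4 were 0.50 and 0.92 above the median; over all genes the calls moved from 479 higher and 248 lower to 234 and 342. With no SE allowed below the median SE of genes at the same level, a check added after the data were seen, none of the 3 was called, and the adjusted p-value of Orc3 was 0.394. The blood markers given above differ between the same groups. So do those of endothelium: the summed level of 5 was 60.6 FPKM at E9.5 and 82.9 at E11.5, with Esam (0.141 and 10.1 FPKM) and Tek (0.104 and 1.64) called higher and Kdr listed at 0 in both groups. Only 1 of the 5 had at least 1 FPKM in both groups, with a log2 ratio of 0.23, so the sum rests mostly on 1 gene. The part of these markers in the ratios was not tested.

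**Figure D3:**
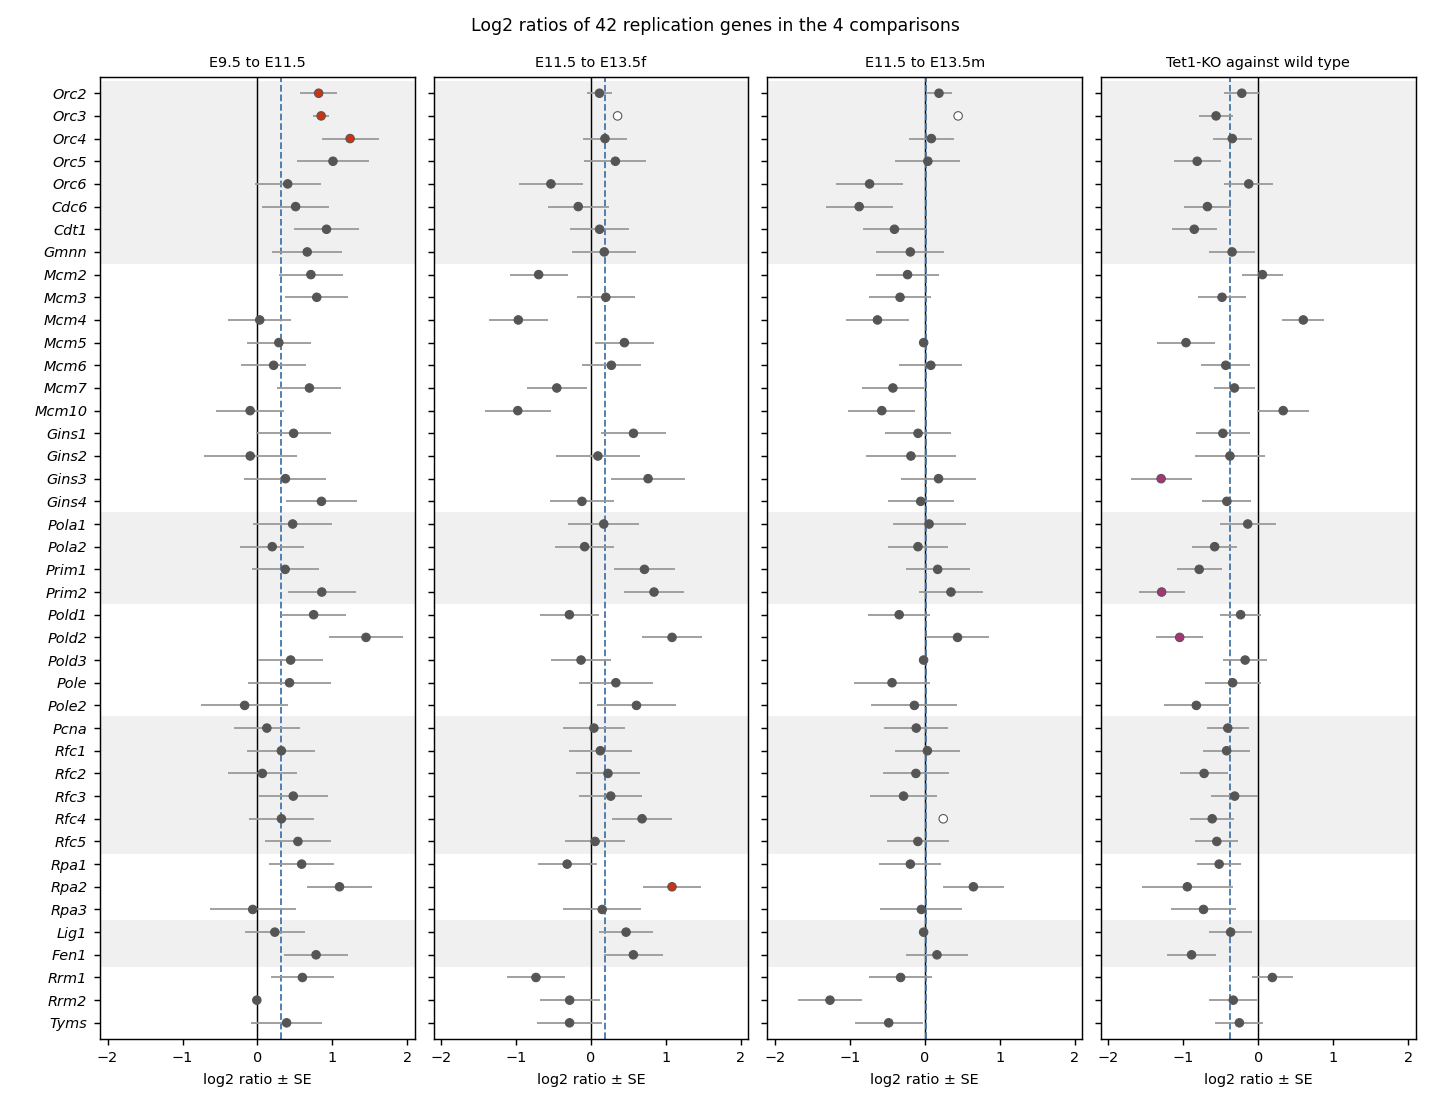
Log2 ratio of each replication gene in the 4 deposited comparisons (x axis, points, with the SE as bars where it could be derived), in order of role on the y axis. Red points are called higher, purple points lower, open points have no completed test, and the dashed line marks the median of all genes with at least 1 FPKM; 3 origin recognition genes are called from E9.5 to E11.5, Rpa2 from E11.5 to E13.5f, none from E11.5 to E13.5m, and 3 genes are lower in Tet1-KO.

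The second comparison was between E11.5 and E13.5f. Rpa2 rose, no replication gene was called lower, and the members of single complexes had ratios of both signs. With 41 of the 42 genes tested (Orc3 had no completed test), 1 was called higher beside 9.34% of 12448 genes, and 0 lower beside 2.68%, with 12% of all genes called in either direction. The median log2 ratio of the 42 genes was 0.16, beside 0.19 over 10149 genes. At an unadjusted p under 0.05 there were 3 higher (Prim2, Pold2 and Rpa2) beside 19.4% of all genes, and 2 lower (Mcm4 and Mcm10) beside 7.11%.

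Rpa2 (chromosome 4, 132324274 to 132334661, build mm9) had 385 FPKM at E11.5 and 814 in E13.5f, a log2 ratio of 1.08 ± 0.39, with a q-value of 0.0487 in the authors' deposited table. Its partners were on either side: Rpa1, the large subunit, had 374 and 300 FPKM, and Rpa3, the small subunit, had 84.7 and 93.8. The level of Rpa2 over that of Rpa1 was 1.03 at E11.5 and 2.72 in E13.5f. Pold2 had nearly the same ratio, 1.08 ± 0.41, from 98.96 and 209 FPKM, with a q-value of 0.0596 in the authors' deposited table. Rpa2 was not called relative to the median of 0.19, at a threshold of 0.01, or with the SE held at the median SE of its level. Between the same groups the germ cell marker Dazl was called higher (309 and 1421 FPKM), and the endothelial markers Esam (8.81 and 0.894 FPKM) and Tek (1.43 and 0.111) and the globin Hba-x (8.60 and 0.173) were called lower. The summed level of the 7 blood markers was 26.1 and 5.22 FPKM and that of the 5 endothelial markers 72.1 and 68.8. Of these, 2 blood markers and 1 endothelial marker had at least 1 FPKM in both groups, so the endothelial sum rests mostly on 1 gene. The part of these markers in the ratios was not tested.

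Levels within the helicase ring lay farther apart in E13.5f than at E11.5. Mcm4 had 150 FPKM at E11.5 and 76.3 in E13.5f, a log2 ratio of -0.97 ± 0.39 with a q-value of 0.0852 in the authors' deposited table. Mcm2 had 299 and 184 FPKM and Mcm7 had 292 and 213, whereas Mcm3 had 306 and 351, Mcm5 had 268 and 365, and Mcm6 had 617 and 744. The level of Mcm6 over that of Mcm4 was 3.63 at E9.5, 4.12 at E11.5, 9.75 in E13.5f and 6.76 in E13.5m. These proteins form a ring with equal copies of each, and the messages did not stand at equal levels in any group. Taken relative to the median of the table, Mcm4 was called lower, at -1.16 with an adjusted p-value of 0.0343, and over all genes the calls moved from 1163 higher and 333 lower to 817 and 489. Mcm10, which joins the helicase at its activation, had 36.0 and 18.3 FPKM (log2 ratio -0.98 ± 0.44) and was not called by either measure.

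No primase, polymerase, clamp, clamp loader, Okazaki fragment or nucleotide supply gene was called. Of all 42 genes, 28 had a ratio above 0, beside 60.6% of all genes, and 18 a ratio above the median of the table. Prim2 had 109 FPKM at E11.5 and 194 in E13.5f, Prim1, the catalytic primase subunit, had 235 and 385, Pola1 had 10.5 and 11.8, and Pola2, the second polymerase alpha subunit, had 77.7 and 73.2. In polymerase delta Pold1 had 146 and 119 FPKM and Pold3 had 91.9 and 83.7. Rfc4 had 353 and 566 FPKM, and all 6 clamp and clamp loader genes had ratios above 0, with a median of 0.17 and 3 of the 6 above the median of the table. Fen1, the nuclease that trims Okazaki fragments, had 279 and 412 FPKM, and Lig1, the ligase that joins them, had 87.8 and 121. The 3 nucleotide supply genes had ratios below 0 and below the median of the table: Rrm1, the large reductase subunit, had 173 and 104 FPKM, Rrm2 had 532 and 436, and Tyms, thymidylate synthase, had 53.1 and 43.5. Fen1 shares 78.8% of its exon bases with a single gene on the opposite strand and overlaps a second, and Gins2 shares 67.3% with Gse1, so the levels of Fen1 and Gins2 are uncertain.

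**Figure D4:**
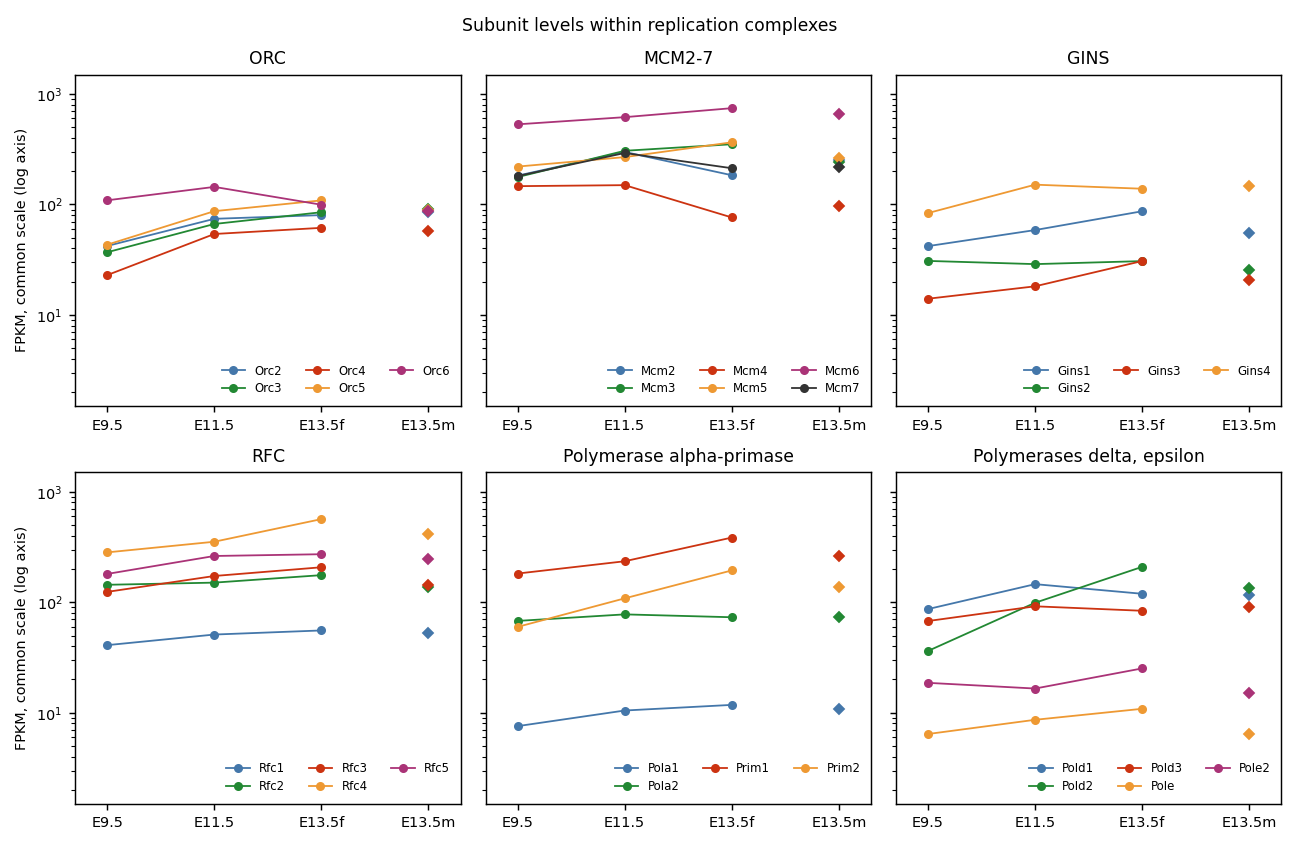
Levels of subunits of 6 replication complexes in the wild-type groups, in FPKM on a common scale (log axis), 1 pooled value per group. The further subunits Orc1 and Pold4 are not included. Lines join E9.5, E11.5 and E13.5f, and diamonds show E13.5m. The ORC subunits lie 4.75-fold apart at E9.5 and 1.77-fold in E13.5f, while Mcm6 and Mcm4 lie 3.63-fold and 9.75-fold apart.

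Subunit levels within a complex differed in how far they spread. The 5 ORC subunits among the 42 genes ran from 22.9 FPKM (Orc4) to 109 (Orc6) at E9.5, 4.75-fold. In E13.5m these 5 ran from 57.5 (Orc4) to 90.7 (Orc3), 1.58-fold, with 2.67-fold at E11.5 and 1.77-fold in E13.5f. Orc1, outside the 42, had 41.7 FPKM at E11.5 and 38.4 in E13.5f, below Orc4 (54.0 and 61.4). With Orc1 the spread of ORC in these groups is therefore wider. In polymerase delta, Pold2 was the lowest of Pold1, Pold2 and Pold3 at E9.5 (36.3 FPKM, beside 86.8 for the catalytic subunit Pold1). In E13.5f it was the highest of them (209, beside 119). The further subunit Pold4, left out of this ranking, lay lower, with 5.20 FPKM in E13.5f. At E9.5 Pold4 had 0.707 FPKM on the scale of its own table. With Pold4 the spread of polymerase delta in these groups is therefore wider. The 4 subunits of primase and polymerase alpha lay 22.4-fold to 32.7-fold apart, with Pola1 lowest and Prim1 highest in each group. Pold1 exceeded Pole, its counterpart in polymerase epsilon, by 10.99-fold to 18.1-fold. RFC subunits lay 6.91-fold to 10.2-fold apart, with Rfc1, the large subunit, lowest and Rfc4 highest. Rfc4 shares 12.7% of its exon bases with Eif4a2 on the opposite strand, Rfc2 15.1% with Lat2 and Rfc5 10.7% with Wsb2. The longest coding transcript is 5346 bases for Pola1 and 1583 for Prim1, and 7163 for Pole and 3454 for Pold1. In RFC it is 4751 for Rfc1, 4995 for Rfc2 and 1279 for Rfc4. The part of transcript length and of these overlaps in the spreads was not tested.

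The third comparison was between E11.5 and E13.5m. No replication gene was called among 40 tested (Orc3 and Rfc4 had no completed test), beside 2.94% of 12311 genes called higher, 1.94% lower and 4.88% in either direction. At an unadjusted p under 0.05 there were 0 higher, beside 9.46% of all genes, and 2 lower, Rrm2 and Cdc6, beside 7.73%. The median log2 ratio of the 42 genes was -0.09, beside 0.02 over 10015 genes. Of the 42, 14 lay above 0, beside 51.3% of all genes, and 28 lay below 0.

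Rrm2 (chromosome 12, 25393118 to 25399011, build mm9) had 545 FPKM at E11.5 and 227 in E13.5m, a log2 ratio of -1.26 ± 0.43, with a q-value of 0.0640 in the authors' deposited table. Rrm1 had 177 and 141 FPKM (-0.32 ± 0.42), so that Rrm2 over Rrm1 was 4.70 at E9.5, 3.08 at E11.5, 4.21 in E13.5f and 1.60 in E13.5m. Cdc6, which loads the helicase with ORC and Cdt1, had 50.6 and 27.6 FPKM (-0.87 ± 0.45). The helicase genes ran from -0.63 for Mcm4 to 0.18 for Gins3, with 9 of 11 below 0, and the largest ratio above 0 among all 42 was that of Rpa2 at 0.65 ± 0.41. A change of 2.47-fold would have been needed for a call at the median SE. Between the same groups the germ cell marker Dazl and the gonadal somatic marker Amh were called higher. The germ cell marker Kit, the endothelial marker Esam and the mesenchyme marker Sparc were called lower. The summed level was 2669 and 5081 FPKM for the 9 germ cell markers and 73.8 and 41.3 for the 5 endothelial markers. Only 1 of the 5 endothelial markers had at least 1 FPKM in both groups, so their sum rests mostly on 1 gene. The part of these markers in the ratios was not tested.

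No deposited table sets E13.5m against E13.5f, so the difference of their log2 ratios to E11.5 was tested with a normal two-sided test, adjusted over all genes with both errors. Of the 37 replication genes that could be tested, 0 were called in either direction, and 0 had an unadjusted p under 0.05. Of all 10677 genes tested, 0.122% had an adjusted p under 0.05 with the higher value in E13.5m, and 0.0468% with the higher value in E13.5f. The shares at an unadjusted p under 0.05 were 1.23% and 2.53%. The median difference, E13.5m minus E13.5f, was -0.24 on the log2 scale, beside -0.21 over 9847 genes.

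Rrm2 had the lowest difference, -0.98 ± 0.59 (95% interval -2.13 to 0.18), from 436 FPKM in E13.5f and 221 in E13.5m on the common scale. Mcm2 had the highest, 0.47 ± 0.57 (-0.64 to 1.59), from 184 and 255 FPKM. Pcna had 339 and 305 FPKM, a difference of -0.15 ± 0.59 (-1.32 to 1.01). The test counts the error of the E11.5 libraries in both ratios, and its 95% intervals reach a 2-fold lower level in E13.5m for 30 of the 37 genes and a 2-fold higher level for 16. In the plot of the E13.5 groups all 42 genes lie within 2-fold of the diagonal.

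**Figure D5:**
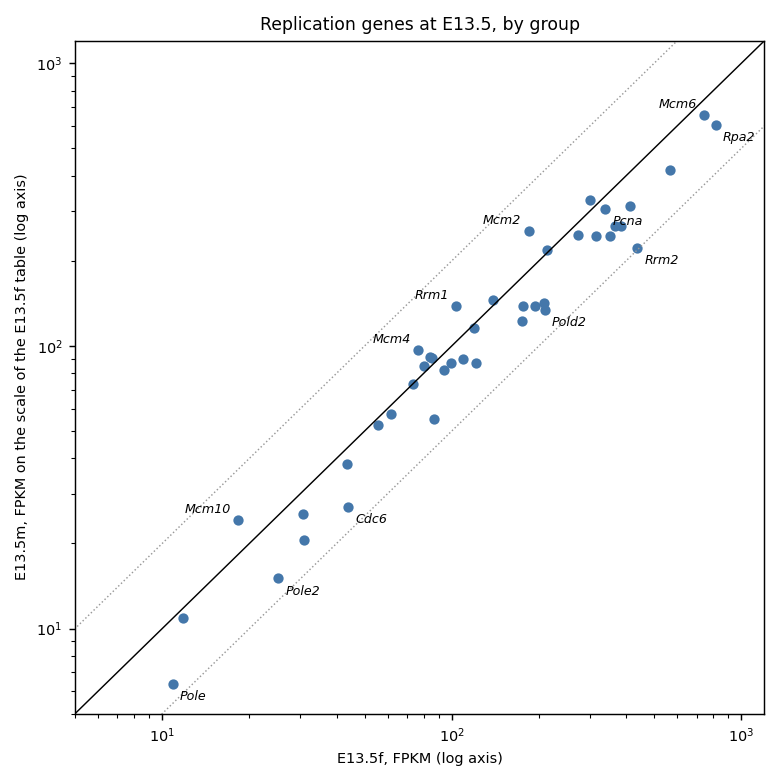
Level of each replication gene in E13.5f (x axis) and E13.5m (y axis), in FPKM on the scale of the E13.5f table (log axes), 1 pooled value per group. The solid line marks equal levels and the dotted lines 2-fold differences; Rrm2 lies farthest below the solid line (436 and 221 FPKM) and Mcm2 farthest above it (184 and 255).

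The last comparison set Tet1-KO against the wild type at E13.5. Prim2, Pold2 and Gins3 fell, which encode a primase subunit, a polymerase delta subunit and a GINS subunit, and no replication gene was called higher. These 3 were called lower among 42 tested, beside 5.48% of 16394 genes. Another 0 were called higher, beside 0.677%, with 6.16% of all genes called in either direction. All 16394 rows count as tested here, also those under 1 FPKM. With a minimum of 1 FPKM, 4 members and 1069 of all genes were called lower, where 10325 genes had at least 1 FPKM in both groups. The median log2 ratio of the 42 genes was -0.43, beside -0.38 over 10325 genes and -0.44 over the 2416 of these with at least 50 FPKM. In all, 4 of the 42 lay above 0, beside 25.6% of all genes. The other 38 lay below 0, and 25 of the 42 below the median of the table. At an unadjusted p under 0.05 there were 12 lower, beside 18.6% of all genes, and 1 higher (Mcm4), beside 2.81%.

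Prim2 (chromosome 1, 33510655 to 33726603, build mm9) had 205 FPKM in the wild type and 83.8 in Tet1-KO, a log2 ratio of -1.29 ± 0.31, and the authors' deposited table gives an FDR of 0.00219. Pold2 (chromosome 11, 5761868 to 5778259) had 221 and 107 FPKM, a log2 ratio of -1.05 ± 0.31, and the authors' deposited table lists its FDR as 0.0195. Gins3 (chromosome 8, 98157458 to 98168959) had 32.05 and 13.04 FPKM, a log2 ratio of -1.30 ± 0.41, at 0.0308 by the FDR of the authors' deposited table. Their partners in the same complexes were not called: Prim1 had 404 and 234 FPKM, Pold1 had 126 and 107, and Gins4 had 146 and 109. Of the 3 genes, Gins3 holds an E2F word and Pold2 does not, as shown above.

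The next lowest FDR values were those of Cdt1 and Fen1. Cdt1 had 185 FPKM in the wild type and 102 in Tet1-KO, a log2 ratio of -0.85 ± 0.30 and, in the authors' deposited table, an FDR of 0.0586. Fen1 had 433 and 233 FPKM, a log2 ratio of -0.89 ± 0.33 and, in the authors' deposited table, an FDR of 0.0802. All 8 genes that act before S phase lay below 0, with a median of -0.46, and 4 of the 8 lay below the median of the table. All 6 clamp and clamp loader genes lay below 0, with a median of -0.49, and 5 of the 6 below the median of the table. Rpa2 had 854 and 443 FPKM, but its SE of 0.60 was the largest of the 42 genes.

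Mcm4 was on the other side. It had 80.4 FPKM in the wild type and 122 in Tet1-KO, a log2 ratio of 0.60 ± 0.28 that was not called. Mcm10 had 19.02 and 23.9 FPKM (0.33 ± 0.35), Rrm1 had 110 and 125 (0.19 ± 0.27) and Mcm2 had 194 and 202 (0.05 ± 0.27). The level of Mcm6 over that of Mcm4 was 9.69 in the wild type and 4.73 in Tet1-KO.

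The table as a whole is shifted by -0.38 on the log2 scale, and the calls depend on it. Taken relative to that median, none of the 3 falls was called, with Prim2 at -0.91 and an adjusted p-value of 0.0723, and Mcm4 was called higher, at 0.98 with an adjusted p-value of 0.0218. Over all genes the calls moved from 111 higher and 899 lower to 264 and 217. With the SE held at no less than the median SE of genes at the same level, all 3 falls were called, beside 738 of all genes called lower. Markers of cell type also moved between these groups. The summed level of 9 germ cell markers was 3630 FPKM in the wild type and 2487 in Tet1-KO, with Dazl called lower (1491 and 671 FPKM) and Sox2, a pluripotency factor, called higher (23.7 and 67.3). Pdgfra, a mesenchyme marker, was called lower at 0.200 and 0.00478 FPKM, and the gonadal somatic markers given above had a higher sum in Tet1-KO with 0 called. The part of these markers in the ratios was not tested.

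The comparisons of E13.5f with E11.5 and of Tet1-KO with the wild type may share libraries, so their values are given side by side only. A level that enters both, above in the first ratio and below in the second, gives them opposite signs by itself. The members called in either comparison had log2 ratios of 1.08 and -1.05 (Pold2), 0.84 and -1.29 (Prim2), 0.76 and -1.30 (Gins3) and 1.08 and -0.95 (Rpa2). Opposite signs were the more common: all 28 members above 0 in the first comparison lay below 0 in the second. The 4 above 0 in the second lay below 0 in the first. Of all genes, 60.6% lay above 0 in the first comparison and 25.6% in the second. The share of all genes with opposite signs was not computed, so these counts have no background. The remaining members had ratios of like sign in both, such as Orc6 with -0.54 and -0.13, Cdc6 with -0.17 and -0.68, Mcm7 with -0.46 and -0.32, Rpa1 with -0.32 and -0.52, and Rrm2 with -0.29 and -0.33.

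The ratios were also set beside the promoter words, as a description. The 14 genes with a word had a median log2 ratio of 0.47 from E9.5 to E11.5, 0.23 from E11.5 to E13.5f, -0.08 from E11.5 to E13.5m and -0.46 in Tet1-KO. The 20 genes without one had 0.47, 0.08, -0.07 and -0.47. Across the 42 genes the Spearman correlation of transcript length with the log2 ratio was -0.14, -0.36, -0.21 and 0.35 in the same order.

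Other genes of replication and its control were read from lists beside the 42. Of 37 further replication genes, 36 were tested from E9.5 to E11.5, 34 in each E13.5 comparison with E11.5 and 37 in Tet1-KO. Cuffdiff called 0 in the 3 developmental tables. Of all genes, 5.63% were called from E9.5 to E11.5, 12% from E11.5 to E13.5f and 4.88% from E11.5 to E13.5m. In Tet1-KO 3 were called lower, beside 5.48% of all genes, and 0 higher, beside 0.677%. At an unadjusted p under 0.05 there were 0 from E9.5 to E11.5 (all genes 14.4% higher and 5.39% lower) and 4 higher from E11.5 to E13.5f (all genes 19.4%). There was 1 lower from E11.5 to E13.5m (all genes 7.73%), and 10 were lower in Tet1-KO (all genes 18.6%). Cdc45, the partner of Mcm and GINS in the active helicase, had 215 FPKM in the wild type and 118 in Tet1-KO, a log2 ratio of -0.86 ± 0.24. Chaf1b, a subunit of the chromatin assembly factor that follows the fork, had 109 and 56.1 FPKM (-0.96 ± 0.32). Asf1b, a histone chaperone, had 411 and 151 FPKM (-1.44 ± 0.34). Their FDR values in the authors' deposited table were 0.0115, 0.0487 and 0.00153. The median log2 ratio of the list in that comparison was -0.32, beside -0.38 over all genes.

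Of 20 regulators of S phase, 19 were tested from E9.5 to E11.5, 16 from E11.5 to E13.5f, 15 from E11.5 to E13.5m and 20 in Tet1-KO. Cuffdiff called 0 from E9.5 to E11.5 and 0 from E11.5 to E13.5m, beside 5.63% and 4.88% of all genes. There 1 and 2 were lower at an unadjusted p under 0.05 (all genes 5.39% and 7.73%). In Tet1-KO 5 were lower at that level (all genes 18.6%). From E11.5 to E13.5f 2 were called lower, beside 2.68% of all genes, and 0 higher, beside 9.34%. Skp2, the ubiquitin ligase subunit that targets the inhibitor p27, had 44.7 and 11.8 FPKM, a log2 ratio of -1.92 ± 0.47, and E2f8, a repressive E2F factor, had 9.12 and 2.74 (-1.74 ± 0.56). Their q-values in the authors' deposited table were 0.00145 and 0.0238. In E13.5m the same genes had log2 ratios against E11.5 of -1.07 ± 0.46 and -1.03 ± 0.57, neither called, and Ccne1, cyclin E1, had 216 and 89.4 FPKM (-1.27 ± 0.46), with a q-value of 0.0809 in the authors' deposited table. In Tet1-KO, Cdk2, the kinase partner of cyclin E, was the 1 regulator called lower, beside 5.48% of all genes. None was called higher, beside 0.677%. Cdk2 had 88.5 and 49.0 FPKM (-0.85 ± 0.27), and the authors' deposited table gives an FDR of 0.0361.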

How the data were processed

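RNA-seq was made from 12 libraries of primordial germ cells, and cDNA was amplified before sequencing, per the labels' protocols. Total RNA came from 400 to 5000 cells in the staged set (E9.5, E11.5, E13.5m) and from 500 to 2000 in the wild-type and Tet1-KO set. Alignment used TopHat 1.3.1 with Bowtie on mm9, per the submitters' processing notes, which also name Cufflinks and Cuffdiff (1.2.1 for the stages, 1.0.3 for Tet1-KO). Each of the 4 tables has pooled FPKM values deposited by the authors. Each also holds the authors' p-value and its adjusted form (q-value or FDR), and the stage tables hold a test statistic, a score deposited by the authors. Gene positions are printed as deposited, and whether starts count from 0 or 1 is not stated. No counting interval was computed, since depth is not given.

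Calls were the authors' own at 0.05. Dividing the log2 ratio by the deposited statistic gave its SE; for Tet1-KO the normal deviate of the p-value was used. An SE was kept where the deviate was above 0.05. E13.5m and E13.5f were compared through their ratios to E11.5, with a two-sided normal test and Benjamini-Hochberg adjustment. The members and lists were chosen with earlier results of these data known. All 42 members could be named, and beside them Tet1, called markers and the most abundant markers. Up to 4 genes of each pathway list per comparison could also be named, by size of change in log2(FPKM + 1). Orc1 was named outside this rule, as a further ORC subunit, and so was Pold4 at E9.5, as a further polymerase delta subunit. Alternatives were calls at 0.01, a repeated adjustment, at least 1 FPKM, a log2 ratio of at least 1, another pseudocount (0.1) and centring on the table median. A floor on the SE (its median in 20 bins of level) was added after the data were seen. Transcript lengths and exon overlaps came from GENCODE M21, without coordinates, and promoters from RefSeq (GRCm38.p6). Calculations were tested on simulated data. Software was Python 3.11.15 with scipy 1.17.1, pandas 2.3.3, numpy 2.4.6 and matplotlib 3.10.9.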

Additional observations from a re-analysis of the deposited data

How the results depend on the processing

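No paired analysis was possible because the tables hold 1 pooled value per group; for the same reason no library could be left out. At a threshold of 0.01 the members called higher were 1 from E9.5 to E11.5 (Orc3) and 0 from E11.5 to E13.5f, and 1 was called lower in Tet1-KO (Prim2). Over all genes the same counts at 0.01 were 232, 565 and 328. With a minimum log2 ratio of 1, 1 member was called higher from E9.5 to E11.5 (Orc4), beside 372 of all genes. Centred on the table median, 1 was higher from E9.5 to E11.5, 0 higher and 1 lower from E11.5 to E13.5f, and 1 higher and 0 lower in Tet1-KO; the member medians were then 0.155 from E9.5 to E11.5 in place of 0.474, -0.033 from E11.5 to E13.5f, a change of sign, and -0.051 in Tet1-KO. With the SE floored at its level, 0 were called higher from E9.5 to E11.5 and 0 from E11.5 to E13.5f, beside 268 and 982 of all genes. Of the alternative values of member counts, medians and the Tet1 check, 56 were classed as the same, 12 as moved and 1 as reversed. The 0.155 is among the 56, of which none reversed, and the counts among them lay within 1.5 times the reported one. Many of the 56 were counts of 0 that stayed 0 and had no direction to keep. They include every count from E11.5 to E13.5m and between E13.5m and E13.5f. With a minimum of 1 FPKM, Cdt1 joined the genes called lower in Tet1-KO, where 1069 of all genes were then called lower. Of the 7 called genes with their own alternatives, 15 values lost the call, none changed sign. With 2 or 3 libraries a group and no value per library, a miss of the threshold does not show that a gene was unchanged.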
